A study of Homo sapiens with 2 samples.

Results

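The segment of chromosome 17 from 75 to 80 Mb (hg19) held 482 of the 31950 loops of an H3K27ac HiChIP list, or 1.51%. HiChIP ligates DNA ends that lie close together in the nucleus and pulls down the fragments that carry a chosen mark, here the acetylated histone of active promoters and enhancers. Each loop of the list joins 2 bins of 2 kb, called anchors here, and carries the number of read pairs that joined them, called contacts. A loop was a member when both of its bins started in the segment, and the segment itself was chosen by its high number of loops, so that number is a description. The cells were KYSE180, an established line of human esophageal squamous cell carcinoma (ESCC), transfected with a non-targeting siRNA and not otherwise treated. There were 2 libraries, labelled 1 and 2, of this 1 condition, and 1 list was made from both. No value therefore has a replicate spread, no test between samples was possible, and no sequencing depth can be read for either library. Shares carry 95% Wilson intervals and numbers of loops exact Poisson ones. Where a share was 0, the limit given is 3 counts of the total, a simpler bound that is lower than the upper end of the Wilson interval. Intervals and limits cover counting error only, and read pairs are not all independent molecules.

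The end of the long arm of chromosome 17 is known for its high density of genes. As background from textbook knowledge, this segment holds SEPT9, a septin of the cytoskeleton, BIRC5, an inhibitor of apoptosis that acts in cell division, SOCS3, an inhibitor of cytokine signaling, and TIMP2, an inhibitor of metalloproteinases. Further along lie RBFOX3, a splicing factor of neurons, the Polycomb genes CBX2 and CBX8, and RPTOR, a subunit of the growth-regulating kinase complex mTORC1. Toward the end of the chromosome come ACTG1, a cytoplasmic actin, P4HB, which forms disulfide bonds in secreted proteins, and MAFG, a small Maf transcription factor. All 25 genes fixed for the segment were matched in RefSeq, which lists them in this order and has 73 protein-coding genes from SEPT9 to PYCR1. The annotation used here is on GRCh38.p14 and the loops are on hg19, so no anchor was assigned to a gene, and the positions below are those of the list.

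The segment was the most looped 5 Mb window of chromosome 17 and ranked 4 of 559 windows with a loop. Its 482 loops (Poisson interval 440 to 527) held 516 contacts and joined 364 distinct anchors. The median window had 25 loops, and the next window of chromosome 17, from 40 to 45 Mb, had 322. Windows with more loops lay on chromosome 11 from 65 to 70 Mb (1367), chromosome 19 from 45 to 50 Mb (591) and chromosome 9 in the 5 Mb from 130 Mb (548). The segment also ranked 4 by distinct anchors. Per anchor it had 1.32 loops, against 2.18, 1.22 and 1.27 in those windows, and ranked 9 of the 70 windows with at least 100 loops, whose median was 0.982.

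**Figure D1:**
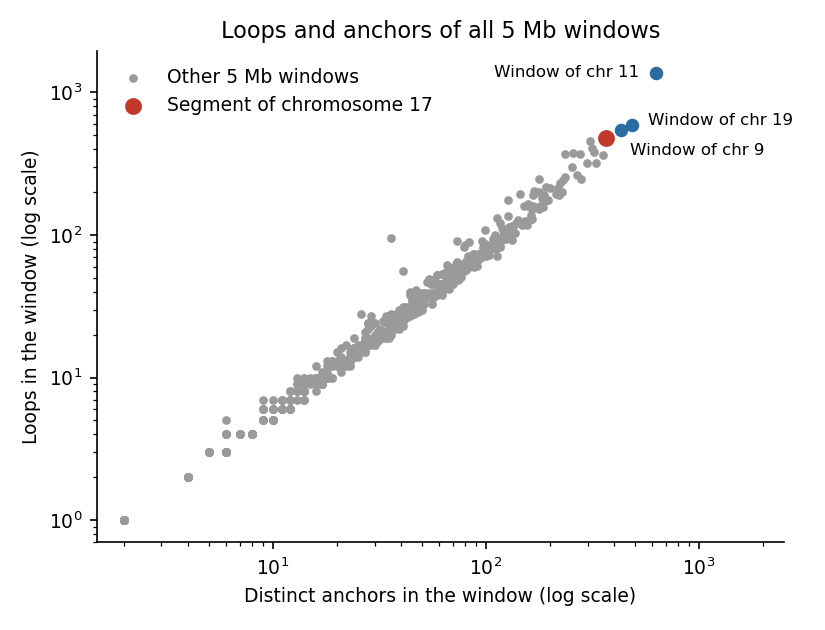
Number of loops against number of distinct anchors in each 5 Mb window of the list, both on log axes, with 1 point per window. The segment of chromosome 17 (364 anchors, 482 loops) lies just below the windows of chromosomes 9 and 19, and the window of chromosome 11 stands above all with 1367 loops.

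A first bin also carries a second number, read as its coverage, meaning all read pairs that touch it. The 259 first bins of the segment had a median coverage of 13 (interquartile range 8.5 to 20), next to 12 (8 to 20) over the 21636 first bins of the list. The window of chromosome 11 had 26 and that of chromosome 9 had 16. By median coverage the segment was rank 34 of the 70 windows. Of the coverage of its first bins, 12.4% was in contacts of the listed loops that start in them, against 9.14% in the whole list. Loops that end in such a bin are left out of both values, although 163 of the 259 were also a second bin. Across the 259 first bins, the number of loops that start in a bin and its coverage had a Spearman correlation of 0.396, against 0.353 across the list. This is a description, because each contact is itself counted in the coverage. Coverage of the 105 anchors that were used only as second bins is not in the list.

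Many anchors were reused. Of the 364 anchors, 113 (31%, Wilson interval 26.5 to 36%) had a single loop when all loops of the list were counted, against 59.2% of all 34902 anchors. At least 6 loops were held by 27 anchors, or 7.42% (5.15 to 10.6%), and 3.05% of all anchors of the list had as many. These shares were not compared by a test, and because the segment was chosen for many loops, more loops per anchor are partly given by that choice.

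Loops lay in separate islands. When the segment was divided into 50 windows of 100 kb, the 5 with the most loop ends took 353 of the 964 ends, or 36.6%, while 5 windows had 0 ends and 8 others had 1 or 2. The window from 79800001 to 79900000 had the most, with 86 ends at 23 anchors. It was followed by 76300001 to 76400000 with 83 ends, 79300001 to 79400000 with 73, 75400001 to 75500000 with 58 and 79600001 to 79700000 with 53. The median window had 12. Of the loops with both bins in the same window of 100 kb, 6 of 22 had at least 2 contacts in the densest window and 6 of 18 in the one from 79300001, but 0 of 29 from 76300001, which allows a share of up to 10.3%. The longest stretch without an anchor ran for 432 kb from 77226001 to 77658000, and another of 152 kb lay just below it. A gap of 254 kb, from 75514001 to 75768000, followed the first island.

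**Figure D2:**
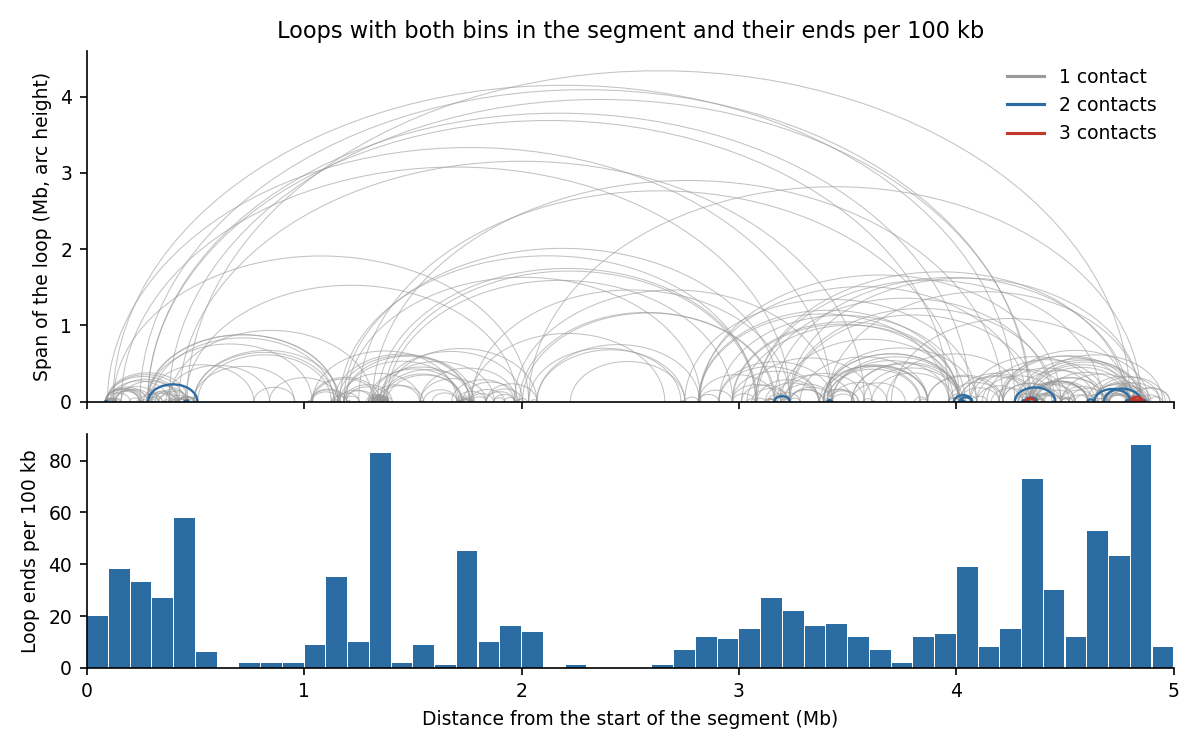
The 482 loops drawn as arcs whose height is the span in Mb, colored by contacts, above the number of loop ends in each of the 50 windows of 100 kb. The x axis is the distance from the start of the segment. Loop ends pile up near 0.4, 1.3, 4.3 and 4.8 Mb and are nearly absent from 2.1 to 2.7 Mb, and all red arcs (3 contacts) lie in the last megabase.

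By megabase, the loops with both bins in the same window numbered 84 from 75 to 76 Mb, 96 from 76 to 77 Mb, 10 from 77 to 78 Mb, 47 from 78 to 79 Mb and 162 from 79 to 80 Mb. Together these are 399 of 482 loops, or 82.8%. The last megabase ranked 8 of 1669 windows of 1 Mb by loops, and the one from 77 to 78 Mb ranked 574. The other 83 loops joined different megabases, most often the last megabase and the one before it, with 29 loops. Only 5 loops joined the first megabase to the last.

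Short spans prevailed. The median span was 94 kb (interval 80 to 128 kb, interquartile range 32.5 to 333 kb) and the spans ran from 10 to 4338 kb. All loops of the list had a median of 120 kb, but a loop that must fit in 5 Mb is bound to be shorter, and loops with both bins in one such window had a median of 102 kb. Of the members, 36.3% spanned 10 to 50 kb, 28.6% 50 to 200 kb, 26.3% 200 to 1000 kb and 8.71% more. Of all loops, these shares were 31, 29.7, 27.6 and 11.7% in the same order. The windows of chromosomes 19, 9 and 11 had medians of 120, 130 and 150 kb, and by median span the segment was rank 48 of 70. At least 1 Mb was spanned by 42 members (8.71%, Wilson interval 6.51 to 11.6%), against 11.7% of all loops and 7.34% of loops that fit in one window.

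The longest loop joined the bin from 75460001 to 75462000 with the bin from 79798001 to 79800000 over 4338 kb. The next spanned 4148, 4090, 3962 and 3782 kb, and all 5 went from the first megabase to the last on 1 contact each. All 42 loops of at least 1 Mb rested on 1 contact, and 0 of 42 allows a share with 2 or more contacts of up to 7.14%. Such contacts were also rare at this span in the whole list, with 12 of 3727 loops (0.322%). Of the 42 member loops, 38 ended above 78 Mb.

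The share of anchor pairs joined by a loop fell with distance. Of the pairs of member anchors 10 to 50 kb apart, 175 of 1670 (10.5%, Wilson interval 9.1 to 12%) had a loop. The share was 3% (2.55 to 3.53%) at 50 to 200 kb, 0.801% (0.674 to 0.953%) at 200 to 1000 kb and 0.0965% (0.0714 to 0.13%) beyond. The pairs share anchors and are not independent, so these intervals do not measure the spread between distances. The medians of the 70 windows were 10.7, 3.66, 0.9 and 0.13% in the same order, so at no distance was the share of joined pairs above the median window. The window of chromosome 19 had 8.61, 2.37, 0.515 and 0.07%, that of chromosome 9 had 9.11, 2.86, 0.613 and 0.0782%, and that of chromosome 11 had 10.8, 3.31, 0.765 and 0.126%. Over all pairs 10 to 1000 kb apart the share was 1.99% (1.81 to 2.18%), rank 47 of 70, while by number of anchors the segment was rank 4. The windows of chromosomes 11, 19 and 9, each with more anchors, had 1.67, 1.3 and 1.43%. An anchor is counted only where it has a loop, so these shares also depend on the number of anchors. The comparison with the 70 windows is not adjusted for that number. Of the 1546 anchor pairs of the segment that shared a partner, 43 (2.78%) were also joined to each other, and the median window had 2.84%.

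A single contact carried 453 of the 482 loops, while 24 had 2 contacts and 5 had 3. The 29 loops with at least 2 contacts are 6.02% of the members (Wilson interval 4.22 to 8.51%), and 3.36% of all loops had as many. In the other windows compared, the share was 4.32% on chromosome 11, 3.72% on chromosome 19 and 4.74% on chromosome 9, and the segment was rank 9 of 70. Among loops of 50 to 200 kb the share was 6.52% (3.47 to 11.9%, 9 of 138) in the segment. In the rest of the list it was 2.42% (2.13 to 2.75%), without overlap of these intervals. The windows of chromosomes 11, 19 and 9 had 4.05% (2.51 to 6.48%), 3.41% (1.57 to 7.24%) and 2.5% (0.976 to 6.25%), which overlap that of the segment. Loops that share an anchor are not independent, so the intervals do not decide whether shares differ. At 10 to 50 kb the share was 10.9% (7.06 to 16.3%) in the segment and 7.2% (6.7 to 7.73%) in the rest of the list, with overlapping intervals. The windows of chromosomes 11, 19 and 9 had 10.8, 7.54 and 10.9% at this span. From 200 to 1000 kb, 1 of 127 loops of the segment (0.787%, 0.139 to 4.33%) had at least 2 contacts, against 1.2% in the rest of the list.

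These loops lay mostly in the last megabase. From 79 to 80 Mb, 23 of 162 loops had at least 2 contacts, or 14.2% (9.65 to 20.4%), rank 3 of the 90 windows of 1 Mb with at least 50 loops, whose median was 4.9%. From 75 to 76 Mb there were 3 of 84 (3.57%), and from 78 to 79 Mb 2 of 47 (4.26%). From 76 to 77 Mb there were 0 of 96, which allows a share of up to 3.12%, although this megabase holds the second densest window of 100 kb. Among members with the first bin below 79 Mb the share was 1.88% (0.862 to 4.03%, 6 of 320), so the share of the whole segment rests on its last megabase, which was singled out after its values were seen.

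Coverage moved with these counts. Among the members of 10 to 50 kb, the first bin had a median coverage of 49 over the 19 loops with at least 2 contacts and of 15 over the 156 loops with 1. Where the first bin had a coverage of at least 40, 11 of 25 such loops (44%, 26.7 to 62.9%) had 2 or more contacts, against 20.1% in the whole list. These 25 loops started in 10 bins, 8 of them above 79 Mb. In the segment and the list, respectively, the share was 7.84 and 8.12% at a coverage of 20 to 39, 4.35 and 5.7% at 10 to 19, and 3.33 and 2.75% below 10. In the last megabase, loops of 10 to 50 kb from first bins with a coverage under 40 had a share of 11.6% (5.07 to 24.5%, 5 of 43), and the part of coverage in its high share was not tested.

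**Figure D3:**
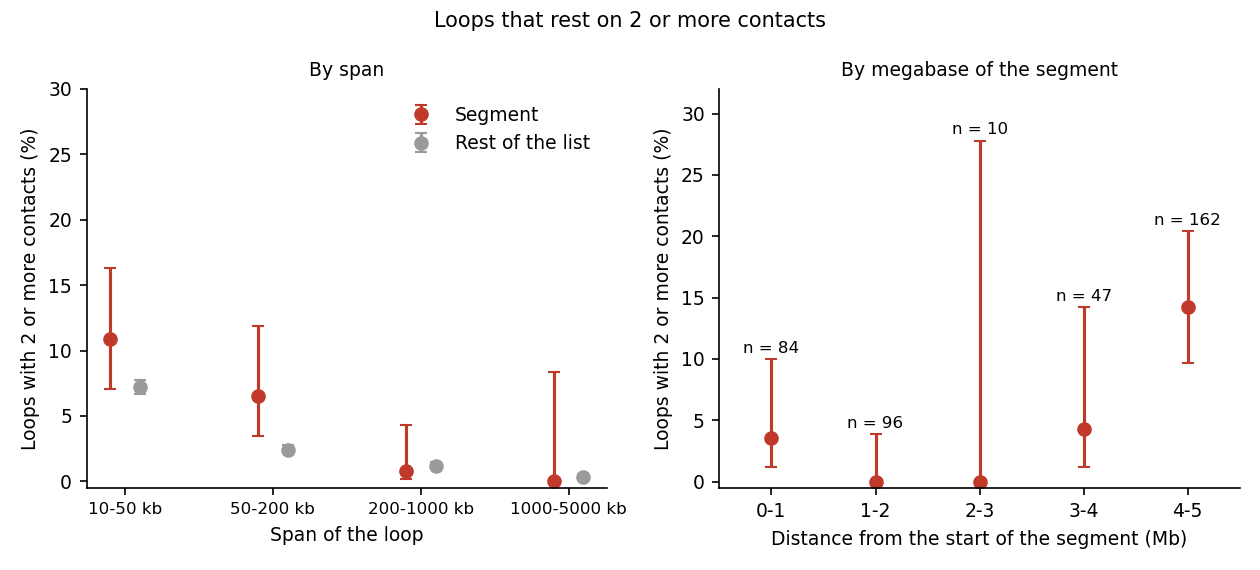
Share of loops with 2 or more contacts, with 95% Wilson intervals as bars, by span in the segment and in the rest of the list (left) and by megabase of the segment (right, with the number of loops). In the segment the share is 10.9% at 10 to 50 kb and 6.52% at 50 to 200 kb, and by megabase it is highest in the last one, at 14.2%.

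The 5 loops with 3 contacts all lay above 79 Mb. One joined the bin from 79318001 to 79320000 with the bin from 79360001 to 79362000, 42 kb away, and its first bin had a coverage of 61. The others lay between 79798001 and 79860000. They joined 79798001 to 79800000 with 79858001 to 79860000 (60 kb), 79800001 to 79802000 with 79830001 to 79832000 (30 kb), 79828001 to 79830000 with 79850001 to 79852000 (22 kb), and 79848001 to 79850000 with 79858001 to 79860000 (10 kb). Their first bins had coverages of 21, 46, 54 and 107. The loops with at least 2 contacts spanned 10 to 226 kb, with a median of 22 kb, and took 63 of the 516 contacts.

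The most connected anchor was the bin from 79848001 to 79850000, with 22 member loops, 28 contacts and 1 further loop that left the segment. Its 23 loops were rank 4 among all anchors of the list, whose highest had 27. It had the highest coverage of the segment, 107. Its partners lay on both sides, 16 below and 6 above, at a median distance of 62 kb, and 13 of the 22 were within 100 kb. The loops of this bin to bins 10, 20 and 22 kb above had 3, 2 and 2 contacts, and those to bins 20 and 170 kb below had 2 each. Its 17 other member loops had 1 contact, the longest over 1620 kb.

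The bin from 79790001 to 79792000 came next, with 17 loops, 19 contacts and a coverage of 69. It had 8 partners below and 9 above, at distances of 10 to 1628 kb with a median of 84 kb. It was joined to the most connected anchor 58 kb away by 1 contact, and to the bin from 79800001 to 79802000 by 2 contacts. The latter, with 8 loops and 13 contacts, was also among the 10 most connected, and 4 of its loops had at least 2 contacts. The third anchor, from 79014001 to 79016000, had 12 loops, 14 contacts and a coverage of 49. Its loops reached farther, with a median span of 312 kb and a maximum of 2764 kb, and 6 of its 7 partners below were at least 442 kb away.

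**Figure D4:**
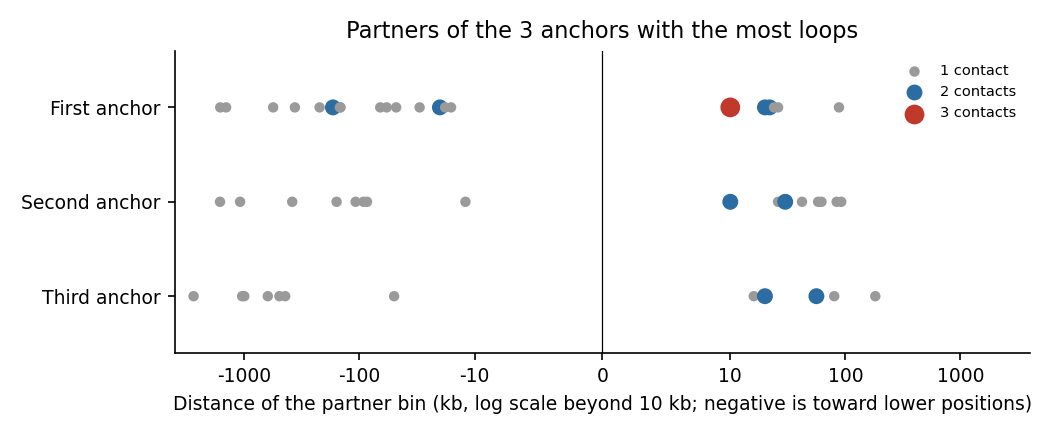
Distance of each partner bin from the 3 anchors with the most loops (22, 17 and 12), in kb, linear within 10 kb and on a log scale beyond, with partners at lower positions to the left. Point size and color give the contacts, and all partners with 2 or 3 contacts lie within 170 kb.

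Of the other anchors among the 10 most connected, 79678001 to 79680000 had 11 loops and 79370001 to 79372000 had 9, so that 6 of the 10 lay above 79 Mb. The bin from 78388001 to 78390000 had 10 loops with 1 contact each, 8 of them to higher positions, at a median distance of 319 kb and with a coverage of 58. The bin from 76312001 to 76314000 was its opposite, with 9 partners that all lay above it within 76 kb. The bin from 75280001 to 75282000 had 9 loops at a median distance of 232 kb, the longest over 3782 kb, and only 1 within 100 kb. The bin from 75084001 to 75086000 had 8 member loops and 1 further loop that left the segment. It was the lowest anchor of the segment, so its member loops all led to higher positions, within 192 kb. At least one end of 110 loops (22.8%) was at one of the 10, and 5 loops joined them to each other. The eleventh anchor also had 8 loops, and the order of such ties was set by contacts and then by position.

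The 364 anchors formed 182 stretches when touching ones were merged. Of these, 65 (35.7%, Wilson interval 29.1 to 42.9%) were a single bin, against 62% of all stretches of the list. More bins touch where anchors are dense, so this share is partly given by the choice of the segment. The compared windows of chromosomes 11, 19 and 9 had 255, 235 and 202 stretches from 627, 483 and 432 anchors. The longest stretch of the segment ran for 12 kb from 76354001 to 76366000, with 16 loops to 8 other stretches. Its neighbor from 76374001 to 76384000 (10 kb) had 19 loops, and 6 loops joined both across 8 kb, the most between any 2 stretches of the segment, with 1 contact each. The stretches from 75416001 to 75426000 and from 79340001 to 79350000 were 10 kb long with 18 and 10 loops. All loops at these stretches of 10 kb or more had 1 contact. The stretch from 75118001 to 75126000 (8 kb) had 12 loops, and it was 1 of several of 8 kb, since 11 stretches were at least that long. The shorter stretches from 79828001 to 79834000 and from 79848001 to 79854000 were joined by 4 loops with 7 contacts. Of the 404 joined pairs of stretches, 351 (86.9%) rested on 1 loop, against 91% in the whole list. A loop passed over at least 1 other stretch in 410 cases (85.1%, 81.6 to 88%), against 79.1% in the list and a median of 81.7% over the 70 windows. On chromosomes 11, 19 and 9 the compared windows had 87.1, 83.6 and 83.4%.

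With loops of every span, the 182 stretches formed 1 connected group. With the 315 loops of at most 200 kb alone, a limit set after the data were seen, they fell into 13 groups of 2 or more stretches and 22 single ones, and the 3 groups with the most loops took 74.9% of these loops. The first ran from 75084001 to 75514000, and 80 loops of any span lay inside it, 3 of them with at least 2 contacts. The second ran from 76016001 to 76406000, with 53 loops inside and 0 with at least 2 contacts, which allows a share of up to 5.66%. The third ran from 79160001 to 79984000, with 147 loops inside, 21 of which (14.3%, 9.54 to 20.9%) had at least 2 contacts. The median coverage of the first bins was 14, 13 and 17 and the highest was 36, 33 and 107, respectively. Loops with 1 end in the group, including loops of the list that left the segment, numbered 41, 37 and 45. Of these, 17, 12 and 21 spanned at least 1 Mb.

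A median of 41 loops of chromosome 17 passed over each bin boundary of the segment. The most, 68, passed over position 76364000. At least 100 kb inside the limits, the fewest passed over position 79896000, with 17, and this number held up to 79936000, which is nearer to the upper limit. The last anchor of chromosome 17 ended at 80848000, and the part of this nearby end in the low number was not tested. With positions kept at least 100 kb from each other, the next low points were 77752000 with 32 loops, 77026000 and 79094000 with 33, and the gap from 77072000 to 77224000 with 34. Of loops spanning at most 1000 kb, 1 passed over 77752000, against a median of 15.

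**Figure D5:**
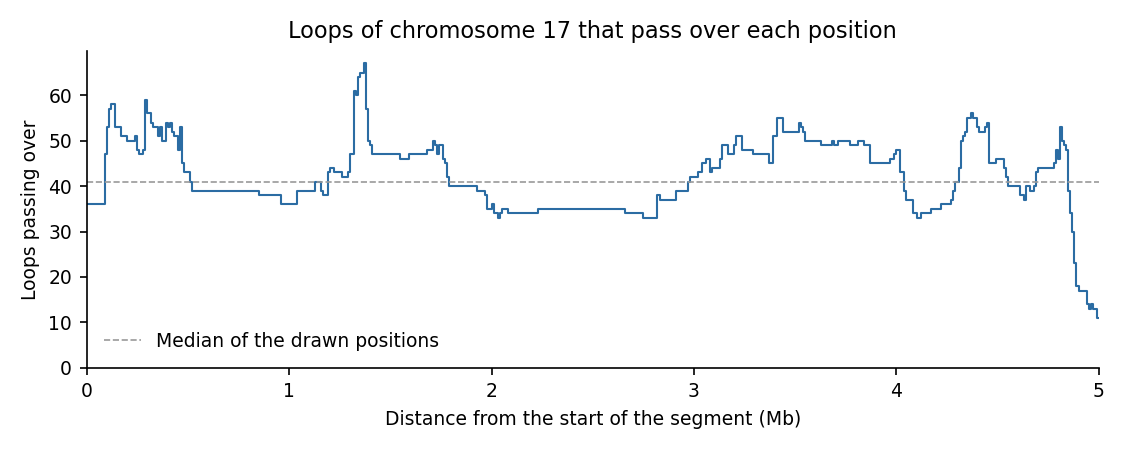
Number of loops of chromosome 17 that pass over each position, against the distance from the start of the segment in Mb, with the median as a dashed line. The curve is highest near 1.4 Mb, stays low from 2.0 to 2.8 Mb and falls in the last 0.2 Mb.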

How the data were processed

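H3K27ac HiChIP was done on KYSE180 cells of 1 condition in 2 libraries. HiC-Pro served for alignment (hg19, per the labels) and read filtering, and FitHiChIP in Peak-To-All mode for loop calling. The methods describe the loops sought as active and associated with p63, and no p63 step is detailed there. Loops lacking H3K27ac at either anchor were dropped by the authors. The authors deposited 1 list for both libraries, with a count of contacts and a coverage, neither normalized. Versions, thresholds and how the libraries were combined are not given in the sources used here. The columns are unnamed and were read as contacts and as coverage of the first bin. In 0 of 21636 first bins did contacts exceed coverage.

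From the list, members were selected by position and described by counts, medians and shares, beside all loops, all windows of 5 Mb and 3 dense windows. Regions were named by rank: the densest windows, 10 most connected anchors, loops with at least 3 contacts, longest stretches and loops, and positions with the fewest loops over them. Members, lists and settings were chosen with earlier results of these data known. Sequence and promoters on hg19 were not used here, so the planned gene and sequence results were not run. The functions were tested on simulated data. Scripts ran under Python 3.11.15 with pandas 2.3.3, numpy 2.4.6, matplotlib 3.10.9 and scipy 1.17.1.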

Additional observations from a re-analysis of the deposited data

How the results depend on the processing

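Of 28 recomputed values of 12 results, 14 stayed and 14 moved. Counts and ranks stayed when within 1.5 times the value, and shares, medians and ratios when within its interval. The densest window stayed when it overlapped and the most connected anchor when it was the same bin. The position with the fewest loops stayed when it was near the first one. Loops with at least 2 contacts numbered 29, with a median span of 22 kb, and 51.7% of them passed over another stretch. Without loops shorter than 20 kb the median was 143 kb, which follows from leaving these out. With windows that step by 1 Mb the segment had rank 12, and 7 of the windows above it were overlapping ones of chromosome 11. The share of loops with at least 2 contacts was 1.88% with the first bin below 79 Mb, an alternative chosen after seeing the data. The median coverage was 17 with each loop counted and 17 over first bins with at least 2 loops. Of anchor pairs 10 to 200 kb apart 4.99% were joined, and of pairs of stretches 6.32%. With anchors up to 4 kb apart merged, 72.4% of loops passed over another stretch. The densest window started at 79600001 with a width of 200 kb and at 76300001 by distinct anchors, where it tied with the one from 79800001 at 23. The fewest loops of at most 1000 kb passed over position 77752000. Except where stated, the cause was not tested. No paired analysis was possible because 1 list and 1 condition cover both libraries, so no replicate could be left out either. The alternatives for promoters and sequence were not run, since they need the build of the list. Counts of 1 to 3 contacts limit every single loop.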

Other observations

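Another 47 loops had 1 bin in the segment and the other outside it, 36 toward lower and 11 toward higher positions. They spanned 216 to 4968 kb, with a median of 1198 kb, and 24 of them spanned at least 1 Mb. Of these 47 loops 1 had 2 contacts. It joined the segment's first island to a bin below 75 Mb. The neighboring parts of chromosome 17 held 256 loops from 70 to 75 Mb and 18 from 80 Mb to the last anchor. At the lower limit, the last anchor outside, from 74866001 to 74868000, had 1 loop and the first anchor inside, from 75084001 to 75086000, had 9. At the upper limit, the last anchor inside, from 79982001 to 79984000, had 1 loop and the first outside, from 80022001 to 80024000, had 2.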
